A study of Mus musculus with 6 samples.

Results

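The 7 genes of the necroptosis and caspase-8 pathway followed here were chosen by name: *Ripk1*, *Ripk3*, *Mlkl*, *Zbp1*, *Casp8*, *Fadd* and *Cflar*. All 7 were among the 56748 genes of the deposited table, and all 7 had enough counts to be among the 17146 genes tested. RNA had been sequenced from primary osteocytes of mouse long bones, cultured for 7 days, with 3 libraries labelled WT and 3 labelled cKO. WT cells came from C57BL/6 mice, for which the methods give an age of 7 weeks, and cKO cells from *Gsdmd* fl/fl mice carrying DMP1-Cre, in which the dentin matrix protein 1 promoter drives the recombinase in osteocytes. Every culture of both groups was given lipopolysaccharide (LPS, a Toll-like receptor 4 ligand) at 10 ng/mL for 3 h and then aluminum hydroxide at 20 µg/mL for 3 h. Unstimulated cells were not analysed here, and all values are from stimulated cultures. The labels do not say whether the 3 libraries of a group came from separate mice, so p-values measure the spread between these libraries, which may be technical.

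Caspase-8 and the RIP kinases decide between forms of cell death downstream of death receptors and Toll-like receptors. FADD recruits procaspase-8, which starts apoptosis and cleaves RIPK1 and RIPK3, while cFLIP, the product of *Cflar*, pairs with caspase-8 and tunes its activity. When caspase-8 is inactive, RIPK1 or the nucleic acid sensor ZBP1 engages RIPK3, and RIPK3 phosphorylates MLKL, which breaks the plasma membrane in necroptosis. GSDMD, the deleted gene's product, breaks the membrane in pyroptosis, and caspase-8 can cleave it.

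The library totals ran from 39566835 to 49734046 counts. WT replicate 3 stood apart from the other 2 WT libraries, with a chi-square per gene of 12.3 and 14.2 against them, where the remaining pairs within a group were at 4.87 to 6.81. Without it 2 of the 7 genes were still higher and 2 lower. *Gsdmd*, the deleted gene, was higher in the libraries labelled cKO. It had 549 to 699 counts per WT library and 885 to 1045 per library labelled cKO (log2 fold change 0.69, adjusted p = 2.27e-06, edgeR). The count covers the whole gene, so floxed exons have no value of their own. This count therefore cannot check the labels, and every direction here rests on them. The groups also differed in *Xist*, the RNA of female cells, with 0 to 4 counts per WT library and 44817 to 51216 per library labelled cKO, and in Y-linked *Ddx3y*, with 4033 to 5455 against 0 counts, so sex and genotype cannot be told apart. Of the macrophage markers, 16 of 16 were higher in the libraries labelled cKO. Their summed level was 6645 to 6971 CPM (counts per 1000000) there, against 1227 to 1387 CPM in WT. *Csf1r*, *Adgre1* and *Ptprc* were present in every library, with 513 counts or more. Of the defining osteocyte markers, *Dmp1* had 0 to 6 counts per library and *Sost* had 0 in all 6. Of 9 osteocyte markers, 2 were tested and *Pdpn* alone was lower. Of the remaining marker lists, 4 of 6 tested osteoblast genes, 1 of 4 osteoclast genes, 4 of 5 endothelial genes and 1 of 5 chondrocyte genes were lower. Higher were 2 osteoblast, 1 osteoclast, 1 endothelial and 4 chondrocyte genes. Over all tested genes 20.1% were higher and 19.2% lower. Summed osteoblast markers were at 13605 to 15440 CPM in WT and 9080 to 9297 CPM in the libraries labelled cKO. Those of chondrocytes were at 1957 to 2169 and 2921 to 3109 CPM. Osteocyte and osteoclast sums were also lower without overlap, and endothelial sums overlapped. The log2 fold change was 7.36 for *Acan* of chondrocytes and -5.91 for endothelial *Emcn*. Of 6 neutrophil markers 2 were tested, *S100a8* and *Camp*, and both were higher. The untested ones included *S100a9*, with 0 counts in every library, and *Ly6g*, with 0 to 2. Of the T and B cell markers, 0 of 6 had enough counts for a test. The part of these differences in the results that follow was not tested. In RNA pooled from many cells, fewer cells of a type and less RNA per cell cannot be told apart.

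The 7 genes did not move together. *Ripk3* and *Mlkl*, the kinase and the membrane-breaking substrate of necroptosis, fell in the libraries labelled cKO. *Casp8* and *Ripk1* rose, and *Cflar*, *Fadd* and *Zbp1* did not pass the test. Calls were made by edgeR's quasi-likelihood test at a Benjamini-Hochberg adjusted p below 0.05 over all tested genes. Among all tested genes 39.3% were called, 20.1% higher and 19.2% lower, so 4 of 7 called, 2 in each direction, is read against that background. The same 4 genes had libraries that did not overlap between the groups, 2 higher and 2 lower, as had 49.2% of all tested genes, 25.3% higher and 23.9% lower. No gene of the 7 reached a log2 fold change of 1 in size, as 11.2% of all tested genes did with an adjusted p below 0.05. The median size of a log2 fold change over all tested genes was 0.25, irrespective of direction.

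**Figure D1:**
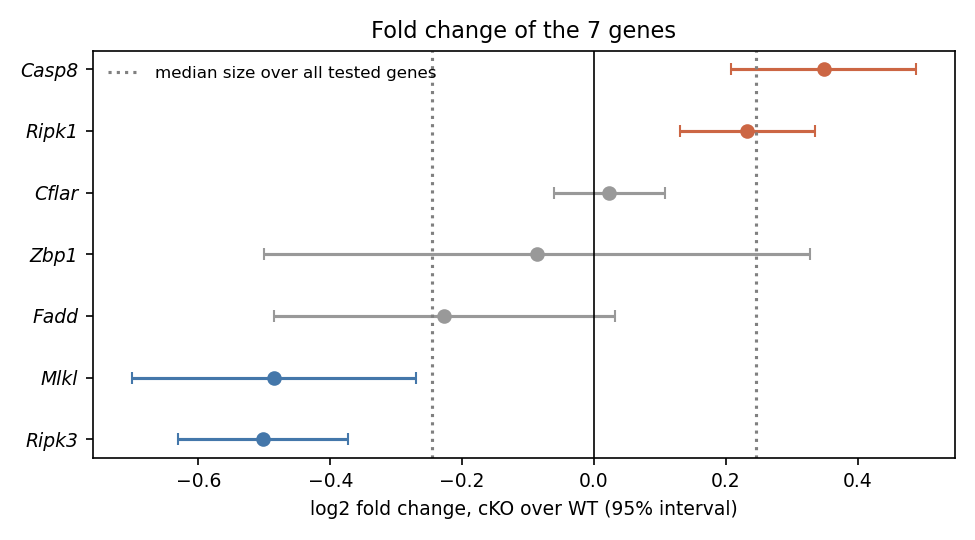
Log2 fold change (x axis, libraries labelled cKO over WT) of each of the 7 genes (y axis), with its 95% interval from edgeR. Orange marks genes that were higher, blue genes that were lower and grey genes not called, and dotted lines mark the median size of 0.25 over all tested genes. *Ripk3* and *Mlkl* lie left of 0 and *Casp8* and *Ripk1* right of it with their whole intervals.

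*Ripk3* (ENSMUSG00000022221) lies on the minus strand at chr14:56022452-56026322 of mm39, and its canonical transcript has 10 exons. It was counted 2739, 3022 and 2743 times in WT and 1897, 1769 and 2096 times in the libraries labelled cKO, which is 60.9, 60.9 and 70.7 CPM against 45.1, 44.5 and 46.1 CPM. The groups did not overlap, and WT replicate 3 was the highest library. The mean fell from 64.1 ± 5.65 to 45.2 ± 0.838 CPM (SD, n = 3 each), which is -0.50 on the log2 scale (standard error 0.061, adjusted p = 2.79e-06). *Ripk3* thus fell by 29.4%, with a 95% interval of -35.4% to -22.8%. Without WT replicate 3 the log2 fold change was -0.43 (adjusted p = 1.09e-06). *Ripk3* had the smallest p-value of the 7 genes, at rank 1791 among all tested genes.

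*Mlkl* (ENSMUSG00000012519) encodes the pseudokinase that RIPK3 phosphorylates and lies on the minus strand at chr8:112038429-112064809. Its levels were 18.0, 19.8 and 24.2 CPM in WT and 15.3, 14.4 and 14.6 CPM in the libraries labelled cKO. Again WT replicate 3 was highest and no library labelled cKO reached the lowest WT library. The mean fell from 20.7 ± 3.20 to 14.8 ± 0.438 CPM (SD, n = 3 each), or -0.49 as log2 fold change with a standard error of 0.10 (adjusted p = 0.000927). The fold change ranged from -0.59 to -0.36 with each library left out in turn and its adjusted p stayed below 0.05 each time. The value nearest 0, -0.36 (adjusted p = 0.00349), was the one without WT replicate 3. In GENCODE M39, *Gm63800* on the opposite strand shares 672 of the 5792 exon bases of *Mlkl*, or 11.6%, and has no value here.

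*Casp8* (ENSMUSG00000026029), the initiator protease, lies on the plus strand at chr1:58834533-58886662. It was at 29.2, 31.1 and 34.1 CPM in WT and at 39.4, 40.0 and 40.6 CPM in the libraries labelled cKO, which all lay above WT. The log2 fold change was 0.35 (standard error 0.066, adjusted p = 0.000362), from 31.5 ± 2.43 to 40.0 ± 0.607 CPM (SD, n = 3 each). The 95% interval of the rise was 15.6% to 40.3%.

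*Ripk1* (ENSMUSG00000021408), the kinase and scaffold at the TNF receptor, lies on the plus strand at chr13:34186346-34221130. It was at 61.8, 63.2 and 64.8 CPM in WT and at 76.5, 73.1 and 73.4 CPM in the libraries labelled cKO. The groups did not overlap, and the log2 fold change was 0.23 (standard error 0.048, adjusted p = 0.000839). In CPM the mean went from 63.3 ± 1.52 to 74.3 ± 1.91 (SD, n = 3 each). The 5′ end of *Ripk1* shares 241 of its 10993 annotated exon bases with *Serpinb6a* on the opposite strand, which had 13867 to 17658 counts per WT library and 12772 to 14906 per library labelled cKO. Library preparation kept the strand of the RNA, but whether the counting used it is not given in the sources used here. Without strand, reads on that stretch cannot be told apart, which holds for *Mlkl* and *Fadd* too. *Gm17084*, on the same strand as *Ripk1*, shares 511 of these exon bases and had 0 counts in every library. Strand cannot separate *Gm17084* from *Ripk1* there.

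RIPK1 and RIPK3 bind each other through the RIP homotypic interaction motif, whose core is 4 residues (I or V, then Q, then I, L or V, then G). The codons of this core are shown because these 2 partners moved in opposite directions. In the GENCODE M39 canonical transcripts on GRCm39 the core was found once in each, at residues 528 to 531 of the 656 of RIPK1 and at residues 448 to 451 of the 486 of RIPK3. The 42 bases around it in the coding sequence are given 5′ to 3′, with the 12 bases of the core in capitals.
Ripk1, coding bases 1567 to 1608: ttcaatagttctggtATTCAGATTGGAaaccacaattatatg
Ripk3, coding bases 1327 to 1368: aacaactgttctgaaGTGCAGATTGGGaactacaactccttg

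*Cflar* (ENSMUSG00000026031) had the most counts of the 7 genes and moved least. It was at 184.0, 186.0 and 189.7 CPM in WT and at 190.1, 187.0 and 191.7 CPM in the libraries labelled cKO, and the groups overlapped. The log2 fold change was 0.02 with a 95% interval of -0.06 to 0.11 (adjusted p = 0.695), which is a change between -4.13% and 7.71%. *Cflar* lies on the plus strand at chr1:58750667-58798043, 36489 bases before *Casp8*, with 1 gene of the table, *Gm3841*, between them. Scaling by the upper quartile turned its small difference negative.

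*Fadd* (ENSMUSG00000031077) encodes the adapter of the death receptors and lies on the minus strand at chr7:144131055-144136200. Its levels were 10.3, 10.0 and 10.5 CPM in WT and 10.3, 7.72 and 8.37 CPM in the libraries labelled cKO. Replicate 1 labelled cKO lay within the WT range and the other 2 lay below it. The log2 fold change was -0.23 with a 95% interval of -0.49 to 0.03 (adjusted p = 0.162). Without cKO replicate 1 it was -0.35 (adjusted p = 0.0493), so this library decides on which side of the threshold *Fadd* falls, and over all alternatives the adjusted p ran from 0.0493 to 0.441. The antisense gene *Faddos* shares 239 of the 3914 exon bases of *Fadd* and had 2, 23 and 18 counts in WT and 32, 24 and 35 in the libraries labelled cKO, against 307 to 498 for *Fadd*. *Gm72893*, also on the opposite strand, shares 339 exon bases of *Fadd*, or 8.66%, and has no value here.

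*Zbp1* (ENSMUSG00000027514), the interferon-inducible sensor that engages RIPK3, lies on the minus strand at chr2:173048405-173060716 and had the fewest counts. It was counted 152, 274 and 158 times in WT and 194, 153 and 172 times in the libraries labelled cKO. In CPM this was 3.38, 5.52 and 4.07 against 4.61, 3.85 and 3.79, so that WT replicate 2 was the highest and WT replicate 1 the lowest of all 6 libraries. The log2 fold change was -0.09 with a 95% interval of -0.50 to 0.33 (adjusted p = 0.775), wide enough to hold a fall as large as the one of *Mlkl*. Without WT replicate 2 the value was 0.12 (adjusted p = 0.687).

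**Figure D2:**
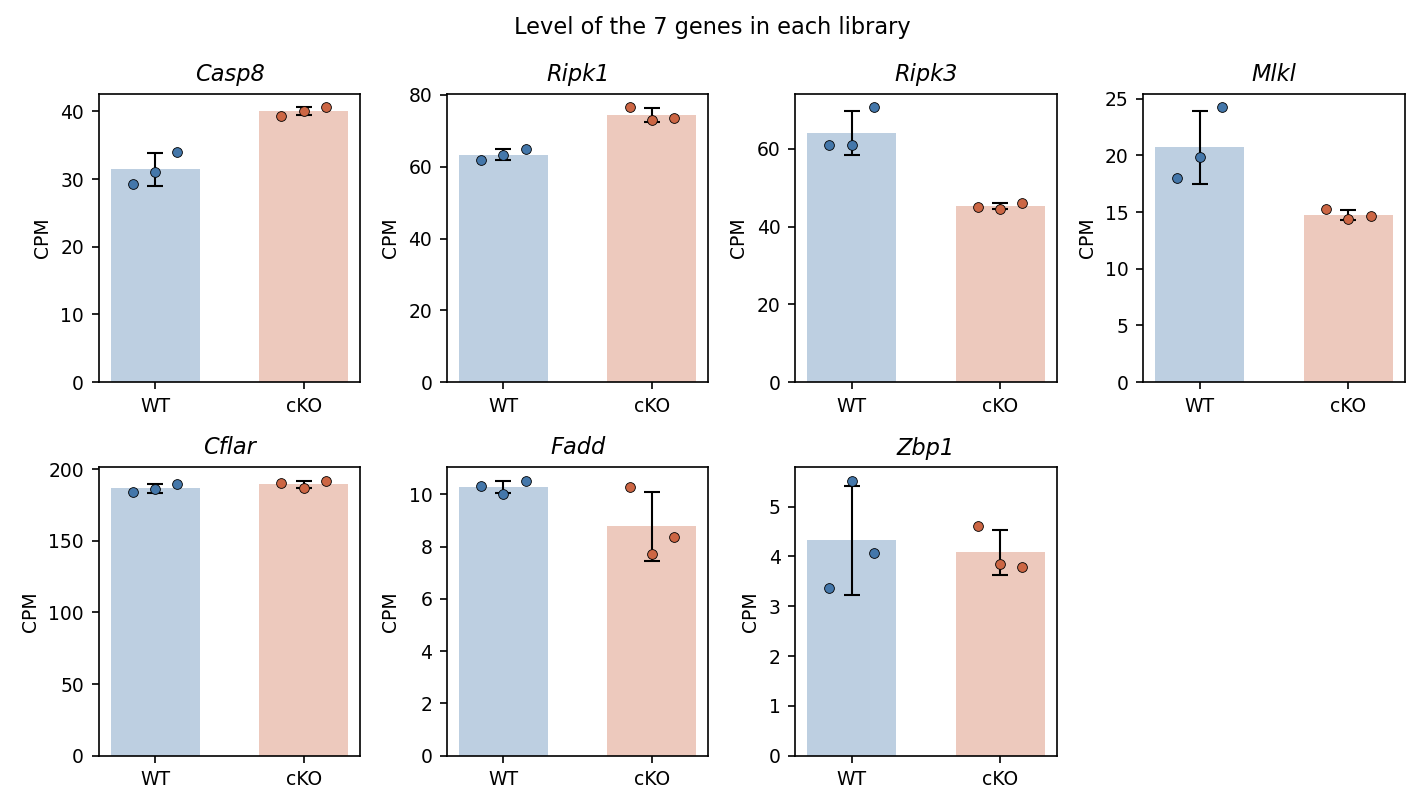
CPM (y axis, from 0) of each of the 7 genes in the 3 WT and 3 cKO libraries. Points are libraries, bars are means and error bars are the SD, and the 2 groups separate for *Casp8*, *Ripk1*, *Ripk3* and *Mlkl* only.

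Levels were compared between genes per kilobase of the deposited gene length (RPKM). In WT, *Ripk3* was highest at 28.0 ± 2.47 RPKM (SD, n = 3), followed by *Cflar* at 14.7 ± 0.229, *Casp8* at 10.9 ± 0.841, *Mlkl* at 8.99 ± 1.39, *Ripk1* at 7.58 ± 0.182, *Fadd* at 2.64 ± 0.0612 and *Zbp1* at 1.22 ± 0.31 RPKM. Only *Casp8* and *Mlkl*, neighbours in this order, had overlapping libraries in WT. In the libraries labelled cKO the order began with *Ripk3* at 19.7 ± 0.366, *Cflar* at 15.0 ± 0.187 and *Casp8* at 13.8 ± 0.21 RPKM. In those libraries *Ripk1*, at 8.91 ± 0.229, stood above *Mlkl*, at 6.41 ± 0.19 RPKM, the reverse of WT, and no neighbours overlapped. The order depends on the length used. The deposited length of *Cflar* is 12669 bases and that of its canonical transcript 7017, while those of *Mlkl* are 2303 and 4171 bases. Per kilobase of canonical transcript, a choice made after the data had been seen, *Mlkl* stood below *Ripk1* in both groups, at 4.96 against 9.39 CPM per kilobase in WT, and *Fadd* and *Zbp1* overlapped in both. With that length *Cflar*, at 27.0, stood above *Ripk3*, at 23.9 CPM per kilobase, in the libraries labelled cKO and below it in WT.

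**Figure D3:**
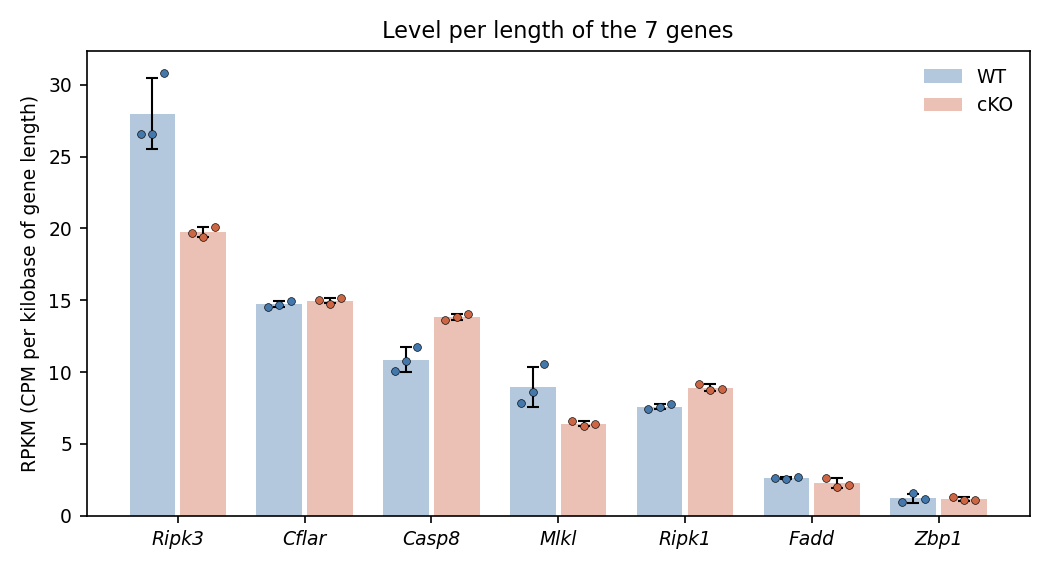
RPKM (y axis, CPM per kilobase of deposited gene length, from 0) of the 7 genes, ordered by their WT mean. Bars are means of 3 libraries, error bars the SD and points single libraries, and *Mlkl* stands above *Ripk1* in WT and below it in the libraries labelled cKO.

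Ratios between members do not depend on the scaling of the libraries. *Cflar* to *Casp8*, the regulator against the protease, was 1.44, 1.37 and 1.27 per base of gene length in the WT libraries and 1.10, 1.07 and 1.08 in those labelled cKO. The log2 ratio was lower by 0.33 in the libraries labelled cKO, at 0.11 ± 0.024 against 0.44 ± 0.089 (SD, n = 3 each), with no overlap. *Ripk3* to *Ripk1* was 3.59, 3.51 and 3.97 in WT and 2.14, 2.22 and 2.29 in the libraries labelled cKO, again with no overlap. The log2 ratio went from 1.88 ± 0.095 to 1.15 ± 0.047 (SD, n = 3 each). This separation follows from the levels above, where *Ripk3* was lower and *Ripk1* higher in every library labelled cKO. That of *Cflar* to *Casp8* mostly restates the rise of *Casp8*, as *Cflar* had a log2 fold change of 0.02. For *Mlkl* to *Ripk3* the ratios overlapped, at 0.295, 0.324 and 0.342 in WT and 0.337, 0.323 and 0.316 in the libraries labelled cKO. The level of a ratio, but not the difference between groups, depends on the length used. Per base of canonical transcript, *Cflar* to *Casp8* was 2.32 in WT and 1.85 in the libraries labelled cKO (geometric means), against 1.36 and 1.08 with the deposited lengths. *Mlkl* to *Ripk3* was likewise 0.146 and 0.148 against 0.320 and 0.325. The exact two-sided permutation test gave p = 0.1 for each of the first 2 ratios, the smallest value that 3 against 3 libraries allow, and p = 0.9 for the third. Adjusted over the 3 ratios these were 0.15, 0.15 and 0.9, so none could pass at 0.05 in this design.

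**Figure D4:**
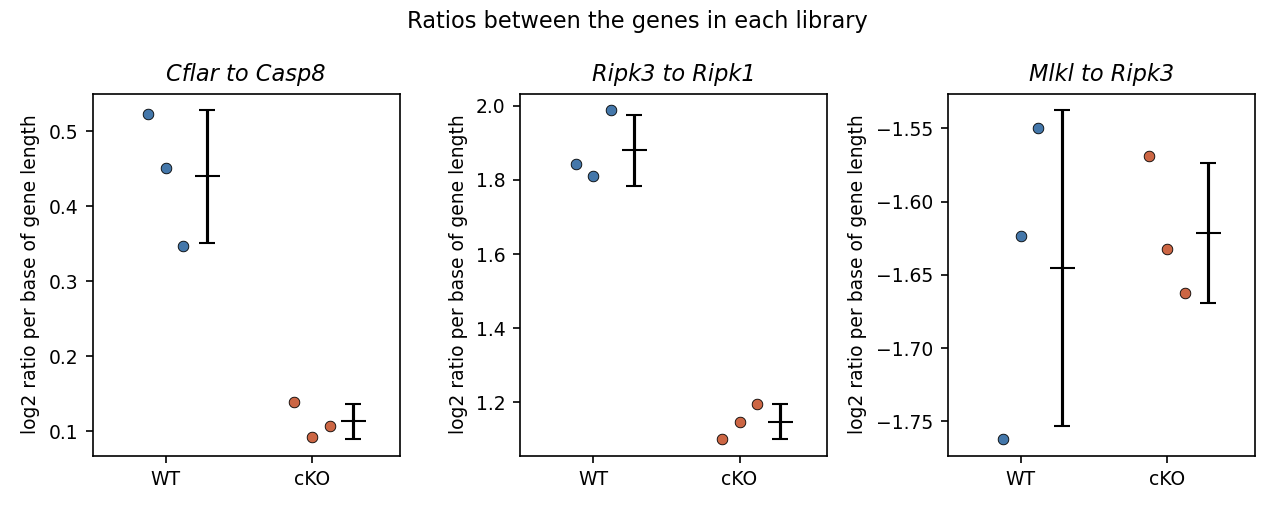
Log2 ratio per base of gene length (y axis) of *Cflar* to *Casp8*, *Ripk3* to *Ripk1* and *Mlkl* to *Ripk3* in each library, with the mean and SD beside the points. The y axes do not start at 0, and the groups separate in the first 2 panels and overlap in the third.

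RefSeq promoter windows (GRCm38.p6) of the 250 bases before a RefSeq start were found for 6 of the 7 genes. *Zbp1* had no entry and *Ripk1* had 2 starts. Such a start need not be the first of the gene. Those of *Ripk3*, the member with the smallest p-value among the lower genes, and of *Casp8*, the same among the higher, are shown 5′ to 3′ along the gene. Motifs searched on both strands were GAAANNGAA (core of the interferon response element), TTCNNNGAA (core of the STAT site) and GGANTTTCC (kB-like), held by 7.13%, 7.02% and 1.06% of the 32851 windows of this length. No match was found in either window shown, so no base is in capitals.
Ripk3, chr14:55788858-55789107, minus strand: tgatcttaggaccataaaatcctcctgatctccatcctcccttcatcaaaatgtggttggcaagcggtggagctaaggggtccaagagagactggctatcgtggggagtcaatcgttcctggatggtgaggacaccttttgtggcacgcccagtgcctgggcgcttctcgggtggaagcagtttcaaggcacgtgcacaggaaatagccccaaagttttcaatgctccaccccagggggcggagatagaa
Casp8, chr1:58802252-58802501, plus strand: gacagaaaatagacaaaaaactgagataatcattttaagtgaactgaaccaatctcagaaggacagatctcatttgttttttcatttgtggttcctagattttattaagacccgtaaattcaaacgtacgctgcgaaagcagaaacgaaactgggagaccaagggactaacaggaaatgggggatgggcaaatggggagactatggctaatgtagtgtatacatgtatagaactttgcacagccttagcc

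The *Ripk3* window holds 8 CpG dinucleotides at a GC content of 54.0% and the *Casp8* window 5 at 39.6%. Of the other windows, that of the second *Ripk1* start held the STAT core at 2 places, 108 and 11 bases before the start, and those of *Mlkl*, *Fadd*, *Cflar* and the first *Ripk1* start held none of the 3 motifs. The whole windows of *Mlkl* and *Cflar*, 250 bases each, 205 bases of the first *Ripk1* window and 84 of the second occur letter for letter in GENCODE M39 transcripts of the same gene. They therefore lie partly or wholly after another annotated start. This search sees only exons, so it cannot place a window that lies in an intron. The *Casp8* and *Cflar* windows begin at 58802252 and 58711241 in GRCm38.p6, while the genes begin at 58834533 and 58750667 in mm39. The windows are thus further apart than the gene starts. The *Casp8* window shown therefore appears to lie within the gene, after its deposited start. A match is only a match of letters, and its absence says only that these letters are not in the window.

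Around the 7 genes, 64 of 68 other pathway genes had enough counts, and 27 were higher and 13 lower where the label was cKO. Over all tested genes 20.1% were higher and 19.2% lower. The pathway genes had a median log2 fold change of 0.07 against 0.01 over all tested genes. With a log2 fold change of at least 1 in size there were 2 higher, *Tnf* and *Il1b*, and 0 lower. The list was written with earlier results of these data known, and it includes *Gsdmd*.

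Among death receptors and ligands, 2 of 4 tested genes were higher and 1 lower. *Tnf*, the ligand of the TNF receptor, rose from 38 to 42 counts per WT library to 181 to 263 (log2 fold change 2.47, standard error 0.22, adjusted p = 7.5e-08). *Tnfrsf10b*, the mouse TRAIL receptor, fell from 91.0 ± 0.874 to 65.3 ± 4.71 CPM (SD, n = 3 each; log2 fold change -0.48). *Fas* rose by 0.32 on the log2 scale (adjusted p = 0.00057), whereas *Tnfrsf1a*, the main TNF receptor, was at 243.3 and 244.2 CPM. The ligands *Lta*, *Fasl* and *Tnfsf10* had 0 to 10 counts per library and were not tested.

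In the TNF receptor complex with its ubiquitin ligases and deubiquitinases, 6 of 16 genes were higher and 1 lower. The 6 were the inhibitor of apoptosis genes *Birc2*, *Birc3* and *Xiap*, *Rnf31* and *Sharpin* of the linear ubiquitin ligase, and the deubiquitinase gene *Otulin*. *Birc3* rose most, from 36.3 ± 1.56 to 50.6 ± 0.80 CPM (SD, n = 3 each; log2 fold change 0.48, adjusted p = 2.07e-06). *Tnfaip3*, which encodes the ubiquitin-editing enzyme A20, was lower by a log2 fold change of -0.15 (adjusted p = 0.0334), and this call was lost in 6 alternatives that kept the rule, with adjusted p up to 0.148. Among kinases that phosphorylate RIPK1 and their partners, *Ikbkb*, *Ikbkg*, *Tbk1* and *Ikbke* were higher, with log2 fold changes of 0.51, 0.36, 0.47 and 0.44, and *Map3k7* and *Tab3* lower, at -0.15 and -0.25, out of 10. The call of *Tab3* was lost with each of 5 libraries left out, leaving adjusted p-values up to 0.125. It was also lost in edgeR with scaling by library size only (adjusted p = 0.0557).

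On the route from Toll-like receptors and interferon, 8 of 13 genes were higher and 3 lower, against 20.1% and 19.2% of all tested genes. *Tlr3* rose from 11.7 ± 1.85 to 18.6 ± 1.26 CPM (SD, n = 3 each; log2 fold change 0.67, adjusted p = 8.44e-05), and *Tlr4*, the LPS receptor, by 0.45 on the log2 scale. *Stat2* and *Irf9*, which encode transcription factors of the interferon response, rose by 0.40 and 0.25. *Ticam1*, the adapter that links these receptors to RIPK1 and RIPK3, fell to a log2 fold change of -0.33 (adjusted p = 0.00249). *Irf1* was also lower, at -0.41 (adjusted p = 0.00636), at 46.5, 37.4 and 29.8 CPM in WT and 28.6, 29.5 and 27.7 CPM in the libraries labelled cKO, and it was at -0.25 (adjusted p = 0.0392) without WT replicate 1.

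Among caspase-8 substrates and the genes listed with them, 4 of 6 genes were higher and 0 lower. They included *Bid* (log2 fold change 0.48), *Gsdmd* and *Il1b*, while *Gsdme*, at 0.26, did not pass. *Il1b* had 8, 0 and 26 counts in WT and 43, 53 and 109 in the libraries labelled cKO (log2 fold change 2.55, standard error 0.69, adjusted p = 0.00665). It ranged from 1.92 without WT replicate 2 to 4.17 without WT replicate 3, and was not called without cKO replicate 3 (2.11, adjusted p = 0.0694) or with DESeq2 (adjusted p = 0.171). Among 10 MLKL cofactor, phosphatase and membrane repair genes, 3 were higher, 3 lower and 4 not called. The chaperone genes *Hsp90aa1*, *Hsp90ab1* and *Cdc37* fell, at log2 fold changes of -0.53, -0.39 and -0.19. *Vps4b*, *Chmp2a* and *Chmp4b*, of the ESCRT repair machinery, rose by 0.33, 0.26 and 0.13 on the log2 scale. Of 5 other RIP kinase and death-effector-domain genes, 0 were higher and 3 lower, among them *Ripk2*, the kinase of NOD receptors, which went from 92.4 ± 1.49 to 71.0 ± 1.48 CPM (SD, n = 3 each; log2 fold change -0.38, adjusted p = 2.98e-06).

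**Figure D5:**
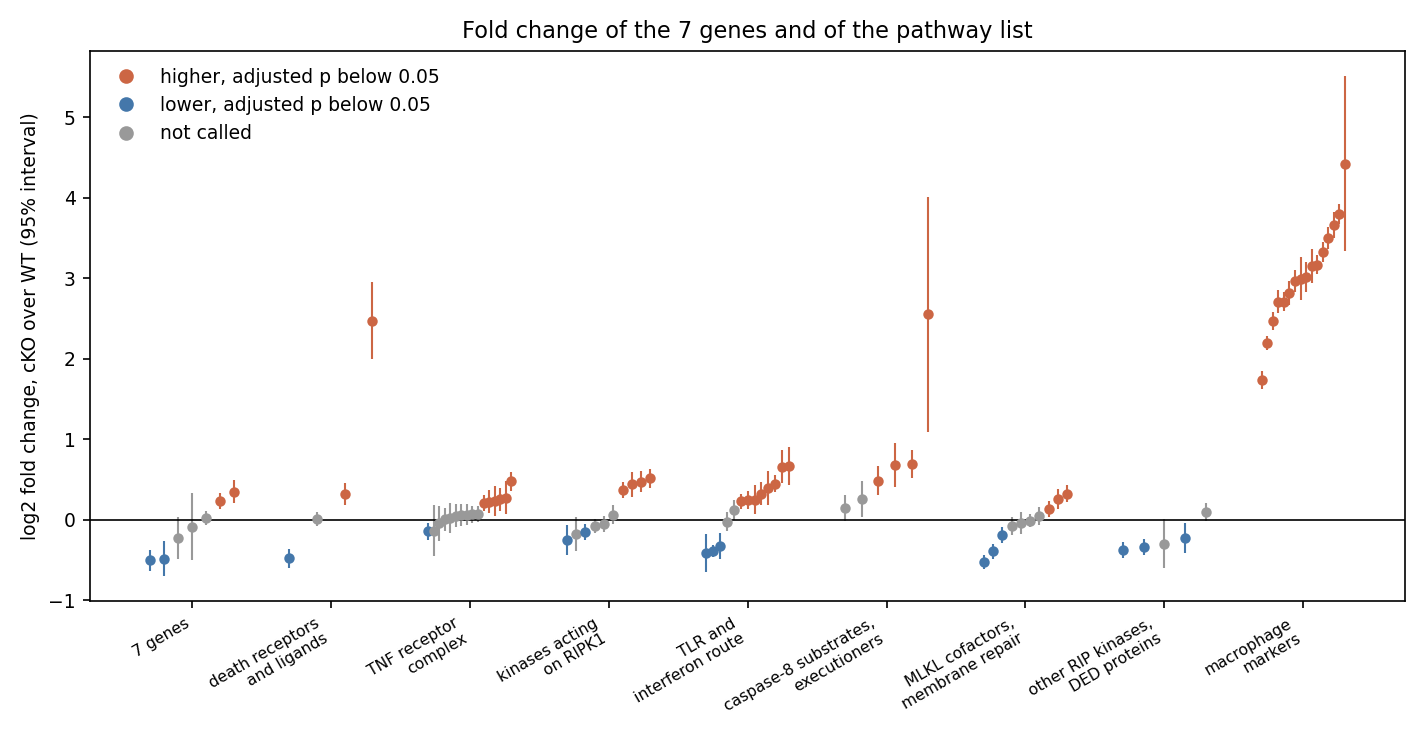
Log2 fold change (y axis, libraries labelled cKO over WT, with 95% intervals) of the 7 genes, of the tested pathway genes by role and of 16 macrophage markers (x axis), sorted within each group. Orange marks genes that were higher, blue lower and grey not called, and the macrophage markers, from 1.73 to 4.42, lie above every one of the 7 genes.

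The 3 tested genes most like *Ripk3* across the 6 libraries, by the root mean square difference of log2 CPM centred on each gene's mean, were *Mylk*, *Scd1* and *Fkbp10*, at 0.018, 0.023 and 0.030. Their log2 fold changes were -0.51, -0.54 and -0.53. They are the closest of 17146 genes over only 6 values, and WT replicate 3 was the highest library of each, as for *Ripk3*. Shared regulation was not tested. *Mylk* was at 34.3 ± 3.46 CPM in WT and 24.0 ± 0.136 CPM in the libraries labelled cKO (SD, n = 3 each).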

How the data were processed

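Paired-end reads of 150 bases were, per the labels, trimmed, mapped with HISAT2 2.0.5 (GRCm39) and counted with featureCounts 1.55.0-p3. The methods name another featureCounts release and RSEM. The authors deposited raw counts per gene and, as another column, a gene length in bases. Both are unnormalized.

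From the counts, edgeR 4.0.16 (R 4.3.3) was run on the whole table: filterByExpr, TMM, glmQLFit and glmQLFTest on genotype alone, Benjamini-Hochberg over 17146 genes. CPM are counts over TMM-scaled library size. Ratios added 0.5 counts and used an exact permutation test. In simulated data of 16798 genes, 14, 40, 42 and 49 of 50 genes changed by 0.25, 0.5, 1 and 2 (log2) were recovered, and 11 unchanged genes were called. The changed genes, all with a mean above 1 CPM, were a far smaller share than the 39.3% called in the real data. No simulated library was made to stand apart. Counts were drawn with a dispersion (spread between libraries) fitted as a trend over mean level, so genes had none of their own. Differences in TMM factor between libraries were not simulated. The recovery therefore need not hold for the real libraries. Alternatives were other scalings and filters, DESeq2 1.42.0, limma-voom 3.58.1, a fold limit, halved counts (small counts were mostly even), a replicate block and each library left out.

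Members and lists were chosen with earlier results of these data known. Named were the members, *Gsdmd*, defining markers, in each role group the called genes with the largest rise and fall, called genes past a log2 fold change of 1, and 3 genes most like the member with the smallest p-value. Other genes were named after their values were seen. Overlaps with other genes used GENCODE M39. Intervals cover the spread between libraries. Protein sequences were not used here. Some genes of the pathway list are counted but not reported by name here.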

Additional observations from a re-analysis of the deposited data

How the results depend on the processing

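Of 112 values of the 7 genes under the alternatives, 104 kept their direction and their side of the threshold. *Ripk3*, *Mlkl*, *Casp8* and *Ripk1* were called under every alternative but a fold limit, with adjusted p-values of at most 0.0111. With a log2 fold change of at least 1 required, 0 of the 7 genes were higher and 0 lower, 2 pathway genes were higher and 0 lower, and 1124 genes of the table were higher and 796 lower, since the limit only removes calls. The following uncalled genes changed sign: *Cflar* was at -0.045 with upper quartile scaling and from -0.0020 (without WT replicate 1) to 0.031 with each library left out, and *Zbp1* ranged from -0.25 (without WT replicate 1) to 0.12 (without WT replicate 2). With each library left out, the log2 ratio of *Mlkl* to *Ripk3*, 0.024 in all libraries, ranged from -0.035 to 0.072 and was negative without WT replicate 1 or cKO replicate 1 (-0.0021). Upper quartile scaling moved the split of all tested genes from 3445 higher and 3285 lower to 2799 and 4294, and the 7 genes kept 2 in each direction.

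The labels do not say whether same-numbered libraries were paired. Deviations of same-numbered libraries from their group means correlated at -0.0136 to 0.0012 across genes. Those of differently numbered libraries correlated at -0.0148 to 0.0152. With a replicate block, 2 of the 7 genes were higher and 2 lower, 26 and 12 pathway genes, and 3298 and 3098 genes of the table. The paired ratios were unchanged in value, with exact sign-flip p-values of 0.25 for *Cflar* to *Casp8* and *Ripk3* to *Ripk1* and 1 for *Mlkl* to *Ripk3*, where 0.25 is the smallest that 3 pairs allow. *Zbp1* had 152 to 274 counts per library and a coefficient of variation of 25.3% in WT, and with halved counts its log2 fold change was -0.088.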
